A study of Homo sapiens with 15 samples.

Results

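The BCL2 family genes decide at the mitochondrion whether a stressed cell lives or dies, and 10 of them were followed here across a dose series of ZJ-101. They were chosen by symbol: the survival genes BCL2, BCL2L1 (BCL-XL) and MCL1, the pore-forming effectors BAX and BAK1, and the BH3-only death signals BCL2L11 (BIM), BBC3 (PUMA), PMAIP1 (NOXA), BID and BAD. All 10 were found among the 59608 gene symbols listed, and all 10 passed the filter on low values (a mean of 10 normalised reads or more), which left 15233 genes for testing. Within the survival genes and within the BH3-only genes, members moved in both directions. At 500 nM 2 of the 10 members rose and 4 fell (limma, adjusted p below 0.05), where 16.2% of all genes tested rose and 16.2% fell. With 500 nM ZJ-101, BCL2L1 rose 1.40-fold while MCL1 fell to 0.857 of its DMSO level, and PMAIP1 rose 1.40-fold while BBC3 fell to 0.682 and BID to 0.780. No member reached a 2-fold change at any dose.

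RNA came from 3D spheroids of MDA-MB-231, an established triple-negative breast cancer line. ZJ-101 is a synthetic analog of superstolide A, a natural product of a marine sponge. Spheroids had formed for 72 h in 96-well plates and were then exposed for 24 h, with the pooled contents of 1 plate, loose cells included, making 1 biological replicate. The 5 groups of 3 libraries were a vehicle group with 0.1% DMSO and 4 groups given 0.5, 5, 50 or 500 nM of ZJ-101, all of the same line, culture and time, and the 4 doses share the same DMSO libraries.

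Survival proteins of this family hold the effectors and the BH3-only proteins in check by binding them in a groove. BH3-only proteins are switched on by stress, through their genes or through modification of the protein, and either block the survival proteins or push BAX and BAK1 to open the outer mitochondrial membrane, which frees cytochrome c. They differ in partners: NOXA binds chiefly MCL1, BAD binds BCL2 and BCL-XL but not MCL1, and BIM and PUMA bind all of them. Much of this control acts on proteins, which were not measured here.

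Libraries held 7773325 to 10065633 reads in genes (median 9108870). The line's own markers were high, with vimentin (VIM) at 16256 to 18870 normalised reads per library, and the oestrogen and progesterone receptor genes were at or near 0 (ESR1 at most 1.89, PGR at 0). ERBB2, the gene of the other receptor used to define triple-negative tumours, was at 1082 to 1314 normalised reads, and of 3 luminal or epithelial genes listed as low in this line, FOXA1 was at most 1.11, CDH1 at 3.61 to 20.8 and GATA3 at 89.1 to 123. Fibroblast transcripts set 3 libraries apart from the rest. The summed level of 14 listed fibroblast genes was 1143 to 1277 in DMSO, and reached 5191 in replicate 2 of 0.5 nM, 3794 in replicate 2 of 5 nM and 4280 in replicate 1 of 500 nM, against 670 to 1406 in the other treated libraries. In DMSO the highest of the 14 were COL6A3 (mean 498), COL1A2 (402), COL1A1 (139) and PDGFRB (128). DCN, POSTN, DPT, SFRP2, ASPN and OGN were at 0 in all DMSO libraries, and OGN was at 0 throughout. Of 8 tested genes of the list, 0 rose and 2 fell at 500 nM, against 16.2% of all genes in each direction. COL6A3 fell by 2.39 on the log2 scale (limma, adjusted p = 0.000417) and PDGFRB by 0.62 (adjusted p = 3.92e-05). At 50 nM, the dose with the lowest sums, COL6A3 had a mean of 113. The part of these transcripts in the results was not tested beyond the fits without those 3 libraries given below. In pooled spheroids, fewer cells of a type and less RNA per cell cannot be told apart.

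The stretch just before the start that RefSeq gives each gene is shown for 4 members with unlike dose patterns: BCL2L1 and PMAIP1, which rose at the highest dose, BBC3, which fell, and BCL2L11, which was lowest at 5 nM. The sequences are those of RefSeq on GRCh38.p14, each from the 250 bases before the annotated start, printed 5′ to 3′ on the gene's strand. GENCODE places an exon of the gene in the last 26 bases of the BCL2L1 window and the last 99 of the BBC3 window, and these bases were left out. GENCODE starts BCL2L11 further upstream, at 111119378, so that the printed BCL2L11 stretch lies inside the GENCODE gene, between its exons. Capitals mark matches, on either strand, to short motifs of factors that are known to act on family genes.
BCL2L1, chr20:31723990-31724213, minus strand: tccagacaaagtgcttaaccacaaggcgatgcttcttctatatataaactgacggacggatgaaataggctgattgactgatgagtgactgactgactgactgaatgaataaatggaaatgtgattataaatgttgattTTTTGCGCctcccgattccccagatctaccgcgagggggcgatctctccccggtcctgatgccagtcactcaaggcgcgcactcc
PMAIP1, chr18:59899746-59899995, plus strand: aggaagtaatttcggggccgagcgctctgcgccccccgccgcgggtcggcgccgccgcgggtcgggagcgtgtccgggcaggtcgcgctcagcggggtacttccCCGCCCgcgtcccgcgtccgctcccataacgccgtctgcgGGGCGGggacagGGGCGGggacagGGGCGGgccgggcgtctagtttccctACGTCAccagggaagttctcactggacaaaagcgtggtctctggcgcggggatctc
BCL2L11, chr2:111120664-111120913, plus strand: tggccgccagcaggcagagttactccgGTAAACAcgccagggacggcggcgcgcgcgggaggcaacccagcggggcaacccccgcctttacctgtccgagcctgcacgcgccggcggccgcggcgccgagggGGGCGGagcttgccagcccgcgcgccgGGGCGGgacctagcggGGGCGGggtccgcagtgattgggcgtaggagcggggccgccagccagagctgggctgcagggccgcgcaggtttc
BBC3, chr19:47232767-47232917, minus strand: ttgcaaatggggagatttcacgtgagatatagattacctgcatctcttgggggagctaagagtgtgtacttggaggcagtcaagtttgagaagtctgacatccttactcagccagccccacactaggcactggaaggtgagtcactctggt

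In BCL2L1 the capitals mark TTTNGCGC, an E2F motif that 1.51% of 35116 promoter windows of 250 bases held. In PMAIP1 they mark TGACGT, read here on the opposite strand, the core of the cyclic AMP response element bound by CREB and ATF factors, which 7.10% of windows held, and 4 copies of GGGCGG, the GC box of SP1, which 42.6% held. In BCL2L11 they mark TGTTTAC, a FOXO motif on the opposite strand that 2.98% of windows held, and 3 GC boxes. No searched motif stood in the BBC3 stretch. Promoter windows were matched for 9 of the 10 members, and over their 15 windows TGACGT also stood in BAD, while TGATGNAA (the ATF4 composite element core, 3.14% of windows) and GGGNNTTCC (an NF-kappaB motif, 5.78%) stood in none. All motifs were read on both strands, and no marked match overlapped one of another motif. A match is a description of the letters and not of binding.

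Per kilobase of annotated exon, BCL2L1 had the highest level of the 10 members in DMSO spheroids, at 830 ± 34.0 normalised reads per kb (SD, n = 3). BAD followed at 503 ± 60.9, MCL1 at 448 ± 13.6, BAK1 at 383 ± 12.6, PMAIP1 at 324 ± 9.02 and BAX at 305 ± 18.2. BID had 116 ± 5.47, BBC3 56.3 ± 3.68 and BCL2L11 46.7 ± 1.57 normalised reads per kb. BCL2, the founding member, was last at 3.18 ± 0.529. Neighbours in this order had library ranges that did not overlap, apart from BAD with MCL1 and PMAIP1 with BAX. These ranges show only the spread between libraries. The length used joins all annotated exons of a gene, whichever transcripts the cells make, so places in this order may depend on the annotation. This was not tested. By mean normalised reads over the 15 libraries, which is not scaled by length, BCL2L1 stood at percentile 98.2 and MCL1 at 96.7 of the genes tested, while BCL2 stood at 20.2.

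**Figure D1:**
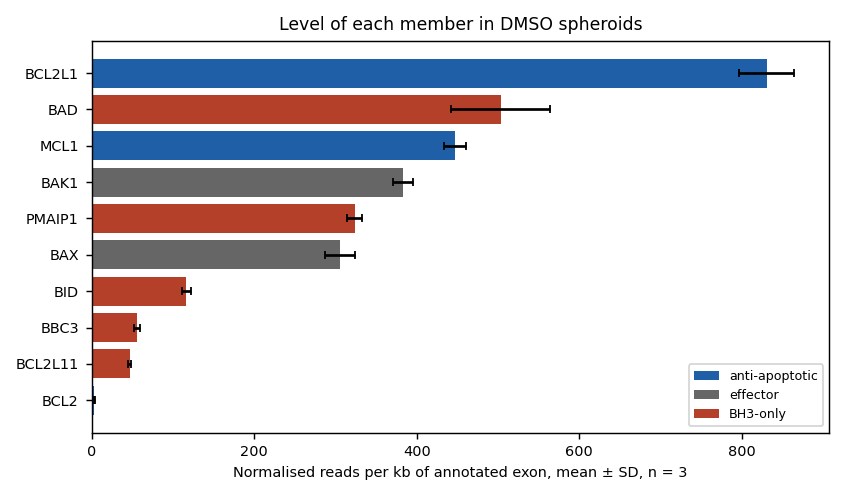
Level of the 10 members in DMSO spheroids in normalised reads per kb of annotated exon (bars start at 0, mean ± SD, n = 3), coloured by class. BCL2L1 leads at 830 and BCL2 is last at 3.18.

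Some members share exonic sequence with a gene on the other strand. The strand setting of the counting is not stated, so how reads in the shared stretches were assigned or left out is not known. The levels per kilobase divide by the full exon length, shared stretches included. BCL2L1 shares 41.3% of its exon length with the antisense RNA gene ABALON, BAD 23.7% with GPR137, BCL2L11 10.8% with MIR4435-2HG and BAK1 4.11% with GGNBP1. BBC3 shares 2.51% with MIR3190 and MCL1 0.691% with ADAMTSL4, also on the opposite strand. On the same strand MCL1 shares 5.27% with ADAMTSL4-AS1 and BBC3 2.39% with MIR3191. BCL2, BAX, PMAIP1 and BID share none on either strand. ABALON was listed at 0.480 to 0.524 of the BCL2L1 value in each of the 15 libraries.

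How many members were called differed by dose. A gene was called when its p from limma, adjusted over the 15233 genes by the Benjamini-Hochberg method, was below 0.05. At 0.5 nM 0 of the 10 members were called, where 0.0722% of all genes were. At that dose 0 members had an unadjusted p below 0.05, where 1195 of the 15233 genes did. On recovered reads edgeR and DESeq2 also called 0 members, and 10 and 4 genes in all. At 5 nM 3 members passed, against 6.91% of all genes: BCL2L1 rose, and MCL1 and BCL2L11 fell. At 50 nM 5 passed, against 20.6%, BBC3 and BID having joined those that fell. At 500 nM 6 passed, against 32.4%: BCL2L1 and PMAIP1 rose, and MCL1, BBC3, BID and BAD fell. The median absolute log2 fold change of the 10 members at 500 nM was 0.21 against 0.16 over all genes tested. The 3 treated libraries lay entirely above or below the 3 DMSO libraries for 0 members at 0.5 nM (12.4% of all genes), 5 at 5 nM (21.2%), 8 at 50 nM (32.9%) and 7 at 500 nM (41.4%). Without the 3 libraries rich in fibroblast transcripts the counts were 0, 3, 5 and 7 in order of dose, BAK1 being added at 500 nM. Over all 15233 genes that fit called 6, 890, 3136 and 4466.

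**Figure D2:**
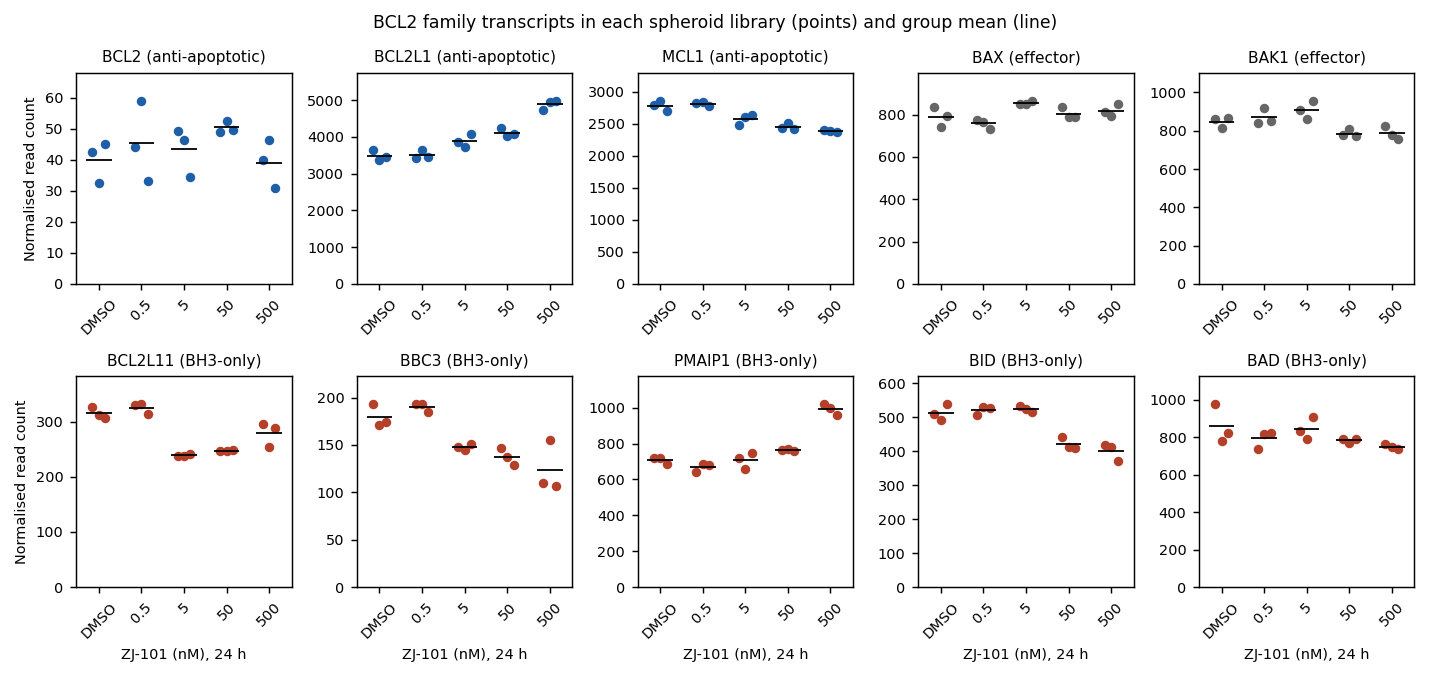
Normalised read count of each member (y axis from 0) in each of the 15 libraries by dose of ZJ-101 in nM, with lines at the group means. BCL2L1 and PMAIP1 stand highest at 500 nM, BCL2L11 is lowest at 5 nM, and the 3 BBC3 libraries at 500 nM are spread from 107 to 155.

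BCL2L1 encodes BCL-XL, a survival protein of the outer mitochondrial membrane (chr20:31664452-31723989, minus strand, GENCODE on hg38). In DMSO its normalised read counts were 3644, 3367 and 3444, and at 0.5 nM 3421, 3634 and 3439. At 5 nM they were 3857, 3727 and 4074, at 50 nM 4230, 4017 and 4076, and at 500 nM 4726, 4941 and 4982. The 5 nM libraries all lay above both lower groups, those at 5 and 50 nM overlapped, and those at 500 nM lay above all others. Against DMSO the log2 fold change was 0.16 ± 0.03 (SE) at 5 nM (limma, adjusted p = 0.000282), 0.24 at 50 nM (adjusted p = 2.1e-09) and 0.49 ± 0.03 at 500 nM (adjusted p = 1.95e-24). The rise came in steps from 0.5 to 5 nM (0.15, adjusted p = 0.000482) and from 50 to 500 nM (0.25, adjusted p = 7.68e-10), and the step between them (0.08, 95% interval 0.02 to 0.14) did not pass (adjusted p = 0.0659). Without trend and robust moderation the calls at 5 nM (adjusted p = 0.112) and from 0.5 to 5 nM (adjusted p = 0.126) were lost. ABALON, which shares exonic sequence with BCL2L1, went from 1758 normalised reads in DMSO to 2418 at 500 nM.

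MCL1 encodes a short-lived survival protein and the main partner of NOXA (chr1:150560895-150579738, minus strand). The DMSO libraries had 2800, 2861 and 2694 normalised reads and the 0.5 nM libraries 2819, 2844 and 2783. At 5 nM the counts were 2475, 2600 and 2645, at 50 nM 2437, 2511 and 2421, and at 500 nM 2401, 2385 and 2374. From 5 nM upwards every library lay below every DMSO library, and the 500 nM libraries lay below all others. MCL1 fell by 0.11 on the log2 scale at 5 nM (adjusted p = 0.0213), by 0.18 at 50 nM (adjusted p = 8.28e-06) and by 0.22 ± 0.03 (SE) at 500 nM (adjusted p = 2.15e-08). The 5 nM call was lost without DMSO replicate 1 (-0.11, adjusted p = 0.0543), without DMSO replicate 2 (-0.09, adjusted p = 0.129) or without 5 nM replicate 1 (-0.09, adjusted p = 0.195). It was also lost with groups compared alone (adjusted p = 0.0738) and without trend and robust moderation (adjusted p = 0.143). Over the 25 alternatives its adjusted p ran from 0.0142 to 0.195.

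BCL2, which lies at chr18:63123346-63320128 on the minus strand, was at the edge of what the depth can resolve. Its 15 libraries held between 27 and 56 reads each, or 31.0 to 59.0 normalised reads. Group means were 40.1 ± 6.68 (SD, n = 3) in DMSO, 50.4 at 50 nM and 39.1 ± 7.70 at 500 nM. The 50 nM libraries, at 48.9, 52.6 and 49.6, lay above the DMSO libraries, at 42.5, 32.5 and 45.2, though the difference did not pass the test (0.34, 95% interval -0.06 to 0.73, adjusted p = 0.262). At 500 nM the difference of -0.04 had a 95% interval from -0.44 to 0.36, so that at this depth the data leave a rise or a fall within these limits possible.

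The pore-forming effectors moved little. BAX (chr19:48954815-48961798, plus strand) had means of 790 ± 47.0 normalised reads in DMSO, 857 at 5 nM, 805 at 50 nM and 819 ± 29.3 at 500 nM (SD, n = 3), and its log2 fold change at 500 nM was 0.05 (95% interval -0.05 to 0.15, adjusted p = 0.479). Its one call between groups was from 0.5 to 5 nM, where 776, 766 and 733 gave way to 852, 852 and 866 normalised reads. That step of 0.18 (adjusted p = 0.0173) was lost without 0.5 nM replicate 3 (0.15, adjusted p = 0.108), without 5 nM replicate 3 (0.17, adjusted p = 0.0683) and without the 3 fibroblast-rich libraries (0.19, adjusted p = 0.0661).

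BAK1, the other effector (chr6:33572547-33580293, minus strand), was highest at 5 nM, at 910, 860 and 957 normalised reads, and lower at 50 nM, at 777, 808 and 771. The groups did not overlap, and BAK1 fell by 0.21 on the log2 scale between them (adjusted p = 0.000809). Against DMSO, at 860, 816 and 867, the difference at 500 nM, at 824, 776 and 758, was -0.11 (95% interval -0.21 to -0.01, adjusted p = 0.0897), with overlapping ranges. Without 500 nM replicate 1, a fibroblast-rich library, that value was -0.14 with an adjusted p of 0.0435, and without all 3 such libraries the adjusted p was 0.0385.

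**Figure D3:**
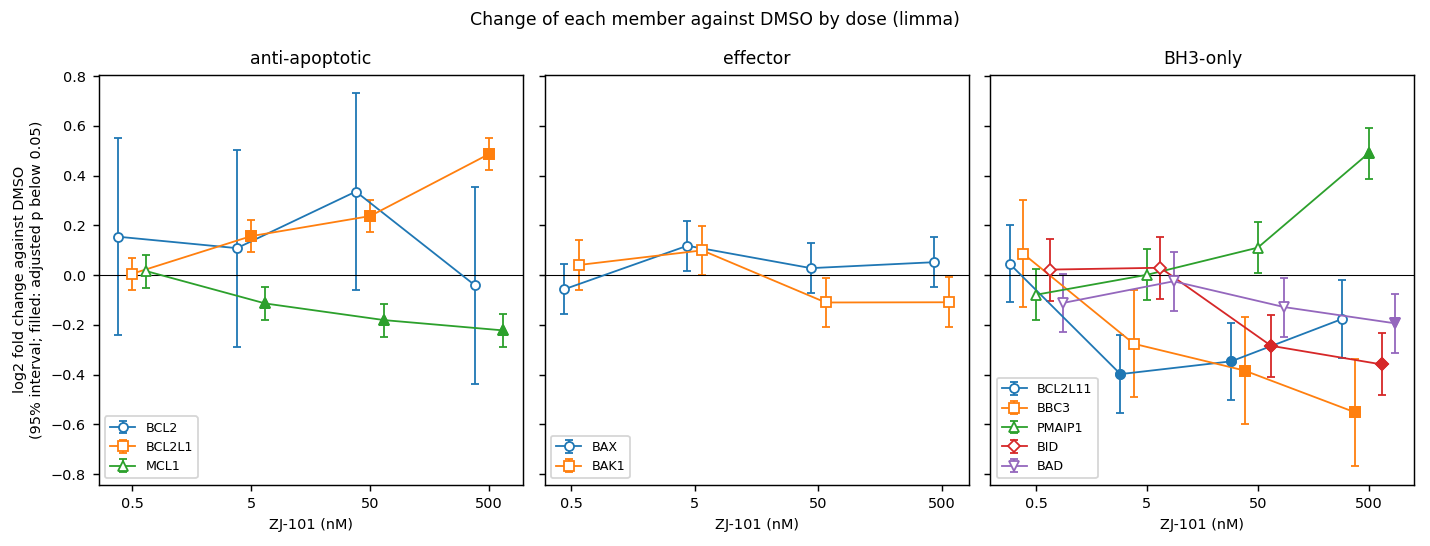
log2 fold change of each member against DMSO (y axis, limma, bars for the 95% interval) at each dose of ZJ-101 in nM, in 1 panel per class, with filled symbols for an adjusted p below 0.05. BCL2L1 (0.49) and PMAIP1 (0.49) end above 0, MCL1 (-0.22), BID (-0.36) and BBC3 (-0.55) end below it, and BAX and BAK1 stay within 0.12 of it.

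Of the 5 BH3-only genes, PMAIP1 was the one that rose. It encodes NOXA (chr18:59899996-59904305, plus strand), whose transcription ATF4 can raise under stress. DMSO libraries had 721, 717 and 685 normalised reads, and those at 0.5 nM 640, 687 and 684. At 5 nM the libraries held 719, 660 and 749, at 50 nM 763, 771 and 758, and at 500 nM 1022, 999 and 962. The 50 nM libraries already lay above every DMSO library by a small margin, and those at 500 nM lay above all 12 others. At 50 nM the log2 fold change of 0.11 (95% interval 0.01 to 0.21) did not pass (adjusted p = 0.13), whereas at 500 nM it was 0.49 ± 0.05 (SE, adjusted p = 3.42e-14). Most of the rise fell in the last 10-fold of dose, with a step of 0.38 from 50 to 500 nM (adjusted p = 3.61e-09).

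BBC3 encodes PUMA, a BH3-only protein that can bind every survival member (chr19:47220822-47232766, minus strand), and it moved the other way. Normalised reads were 193, 171 and 175 in DMSO and 193, 193 and 185 at 0.5 nM. At 5 nM they were 148, 145 and 151, at 50 nM 147, 137 and 128, and at 500 nM 110, 155 and 107. All 9 libraries from 5 nM upwards lay below all 6 of DMSO and 0.5 nM, and replicate 2 of 500 nM stood apart from the other two. BBC3 fell by 0.38 on the log2 scale at 50 nM (adjusted p = 0.00482) and by 0.55 ± 0.11 (SE) at 500 nM (adjusted p = 1.27e-05), and by 0.72 there without that replicate. At 5 nM the difference of -0.28 did not pass against DMSO (adjusted p = 0.116) but did against 0.5 nM (-0.36, adjusted p = 0.0232). The latter call was lost without any 1 of 5 libraries of these groups (values from -0.38 to -0.35, adjusted p from 0.0511 to 0.0875), the exception being 0.5 nM replicate 3, and without the fibroblast-rich libraries (-0.34, adjusted p = 0.137). DESeq2 on recovered reads (adjusted p = 0.0634) and limma without trend and robust moderation (adjusted p = 0.126) did not call this step either.

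BID is cut by caspase-8 into an active fragment and so links death receptors to the mitochondrion (chr22:17734138-17774770, minus strand). It stood at 511, 491 and 539 normalised reads in DMSO, 508, 531 and 526 at 0.5 nM, and 534, 524 and 515 at 5 nM. The level was then 442, 412 and 411 at 50 nM and 419, 413 and 370 at 500 nM. The 6 libraries of the upper doses lay below all 9 of the lower groups, with no step among the lower 3 groups that passed. BID fell by 0.28 at 50 nM (adjusted p = 0.000198) and by 0.36 ± 0.06 (SE) at 500 nM (adjusted p = 1.03e-06) on the log2 scale, and the step from 5 to 50 nM was -0.31 (adjusted p = 4.26e-05).

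BCL2L11, the gene of BIM (chr2:111119378-111168444, plus strand), is raised by FOXO factors, and its protein is marked for breakdown by ERK signalling. It had 327, 312 and 306 normalised reads in DMSO and 330, 332 and 313 at 0.5 nM. At 5 nM the libraries had 237, 239 and 241, at 50 nM 246, 247 and 249, and at 500 nM 295, 253 and 289 normalised reads. The level was lowest at 5 nM, with libraries within 4 normalised reads of one another. At 500 nM all 3 libraries lay above those of 5 and 50 nM and below DMSO. BCL2L11 fell by 0.40 ± 0.08 (SE) on the log2 scale at 5 nM (adjusted p = 0.000137) and by 0.35 at 50 nM (adjusted p = 0.000277). At 500 nM the difference of -0.18 (95% interval -0.33 to -0.02) did not pass (adjusted p = 0.0751). Without 500 nM replicate 1, a fibroblast-rich library, it was -0.22 with an adjusted p of 0.0492. It also passed without trend and robust moderation (adjusted p = 0.0289). The step from 5 to 50 nM was 0.05 (95% interval -0.10 to 0.21, adjusted p = 0.736) and did not pass. The partial return from 50 to 500 nM (0.17, adjusted p = 0.17) did not pass either.

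BAD, which growth factor signalling holds inactive through phosphorylation (chr11:64269830-64284704, minus strand), gave the least firm of the calls at 500 nM. DMSO libraries had 977, 779 and 823 normalised reads and 500 nM libraries 763, 746 and 734. The groups did not overlap, but DMSO replicate 1 was far above the other DMSO libraries. BAD fell by 0.19 ± 0.06 (SE) on the log2 scale (adjusted p = 0.00788). The call was lost without trend and robust moderation (adjusted p = 0.0926). Without DMSO replicate 1 the value was -0.10 (adjusted p = 0.211), while without DMSO replicate 2 the 50 nM difference of -0.13 (adjusted p = 0.125) became -0.20 and passed (adjusted p = 0.012). How reads were counted where BAD overlaps GPR137 is also not known.

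Tests that used all doses together gave a similar list of members. The F-test over the 5 groups called 9 of the 10, all but BCL2 (adjusted p = 0.49), against 39% of all genes tested. BAX and BAD were called by it in 14 and 15 of 24 alternatives. The slope over log10 dose in the 12 treated libraries, which leaves DMSO out, called 6, against 27.9% of all genes. It was 0.15 per 10-fold dose for BCL2L1 and 0.18 for PMAIP1, and it was -0.08 for MCL1, -0.07 for BAK1, -0.15 for BID and -0.20 for BBC3. Steps between neighbouring doses called 5 members from 0.5 to 5 nM (against 7.06% of all genes), 2 from 5 to 50 nM (18.5%) and 2 from 50 to 500 nM (12.7%). The first of these counts was 3 without 5 nM replicate 1, without 5 nM replicate 3 or without the fibroblast-rich libraries. Over all genes 732, 719 and 738 were called there, in place of 1076. Without the fibroblast-rich libraries the 3 members called were BCL2L1, MCL1 and BCL2L11.

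The balance between members can be read inside each library as a ratio of reads, which does not depend on how libraries are scaled. MCL1 to PMAIP1, the survival gene and the gene of its BH3-only partner, had a median ratio of 3.93 in DMSO (3.88 to 3.99) and 4.14 at 0.5 nM (4.07 to 4.40), where all 3 libraries lay above those of DMSO. It was 3.53 at 5 nM (3.44 to 3.94), 3.19 at 50 nM (3.19 to 3.26) and 2.39 at 500 nM (2.35 to 2.47). The 3 ratios at 500 nM lay below those of every other library. BCL2L1 to MCL1 went the other way, from a median of 1.28 in DMSO (1.18 to 1.30) to 2.07 at 500 nM (1.97 to 2.10), so that reads of the survival genes shifted towards BCL2L1.

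BCL2L1 to BCL2L11 had a median ratio of 11.2 in DMSO and 10.9 at 0.5 nM, and of 16.3, 16.4 and 17.2 at 5, 50 and 500 nM. The lowest library of the 3 upper doses (15.6) was above the highest of DMSO and 0.5 nM (11.2). PMAIP1 to BBC3, the BH3-only genes that moved in opposite directions, had a median ratio of 3.92 in DMSO and 3.55 at 0.5 nM, and of 4.86, 5.64 and 9.02 at 5, 50 and 500 nM, with a range of 6.45 to 9.32 at the highest dose. These ratios restate the members' own values and were not tested.

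**Figure D4:**
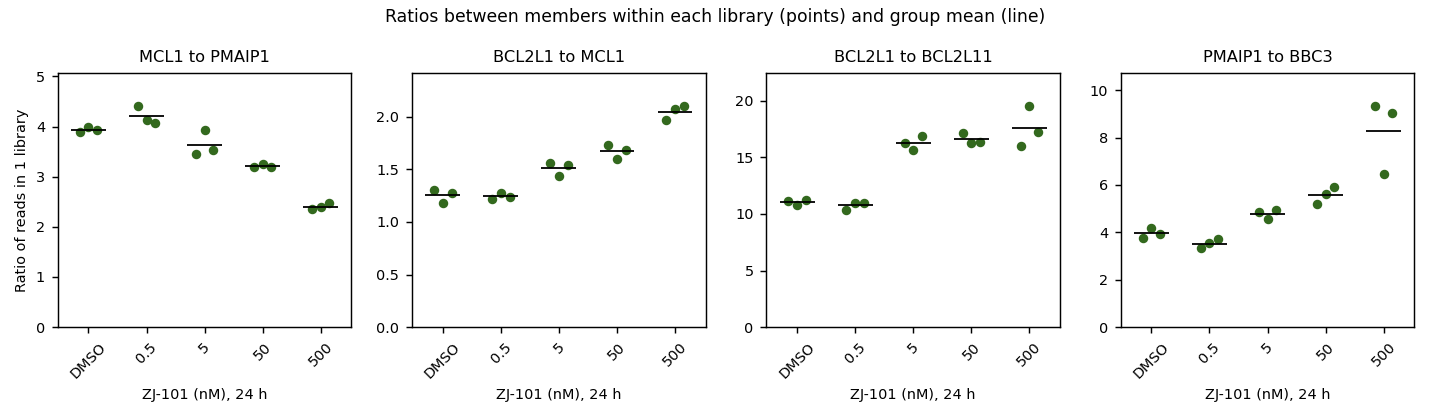
Ratio of reads between pairs of members within each library (y axis from 0), by dose of ZJ-101 in nM, with lines at the group means. MCL1 to PMAIP1 is lowest at 500 nM (2.35 to 2.47), and BCL2L1 to BCL2L11 separates DMSO and 0.5 nM from the upper doses.

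For the 3 members with the smallest F-test p, the genes of most similar pattern were ranked by Pearson's r of log2 values over the 15 libraries, which share dose groups and normalisation. BCL2L1 was most like HMGA1 (r = 0.982), which encodes a chromatin protein, TMBIM1 (0.979) and its antisense gene ABALON (0.978). PMAIP1 was most like AC093484.3 (r = 0.975) and ATP13A2 (0.974), a lysosomal transporter gene. MCL1 was most like SERPINB9 (r = 0.961), FOSL2 (0.959) and ITM2B (0.959).

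Around the members, other genes of the family were measured too. Of 14 other relatives 8 were tested, and at 500 nM 3 rose and 0 fell, against 16.2% of all genes in each direction. BNIP3, a mitophagy receptor with a BH3-like motif, rose by 0.32 (adjusted p = 2.85e-12), BOK, an effector-like gene, by 0.19 (adjusted p = 0.0118), and BMF by 0.18 (adjusted p = 0.0238) on the log2 scale. BMF, a BH3-only gene whose protein, like BIM, can be tethered to dynein light chains, had its lowest level at 5 nM. BCL2L11 was also lowest there, but its step from 5 to 50 nM did not pass (0.05, adjusted p = 0.736). BMF had 472, 462 and 416 normalised reads in DMSO. At 5 nM they were 321, 325 and 320, at 50 nM 391, 405 and 420, and at 500 nM 499, 522 and 509. BMF fell by 0.48 at 5 nM (adjusted p = 2.54e-08) and rose from 5 to 50 nM by 0.33 (adjusted p = 4.5e-05) and from 50 to 500 nM by 0.33 (adjusted p = 5.03e-05). The survival genes BCL2A1 and BCL2L10 and the BH3-only gene HRK were at 0 to 2.18 normalised reads and were not tested.

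Downstream of the pore, 13 apoptosome and caspase genes were tested, of which 1 rose and 1 fell at 500 nM, against the same shares of all genes, with a median log2 fold change of 0.00 against 0.00 over all genes. CYCS, the cytochrome c gene, rose by 0.14 (adjusted p = 0.00867), and APAF1, the scaffold of the apoptosome, fell by 0.36 (adjusted p = 0.000531). Among 5 inhibitors of apoptosis 0 rose and 3 fell at 50 nM, where 9.66% of all genes fell, and 0 rose and 2 fell at 500 nM, where 16.2% of all genes rose and 16.2% fell: BIRC3 by 0.68 (adjusted p = 5.66e-13) and BIRC2 by 0.39 (adjusted p = 3.4e-11), the ubiquitin ligases cIAP2 and cIAP1 of tumour necrosis factor signalling. XIAP, the caspase inhibitor, had a log2 fold change of -0.03 and did not pass (adjusted p = 0.741).

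The death receptor arm, which reaches the family through BID, had 14 tested genes, of which 2 rose and 6 fell at 500 nM (median -0.11), against 16.2% of all genes in each direction. TNFSF10, the gene of the death ligand TRAIL, fell by 0.82 at 50 nM (adjusted p = 1.25e-28) and by 1.00 at 500 nM (adjusted p = 1.9e-35), while TNFRSF10A, one of its receptors, rose by 0.53 (adjusted p = 4.78e-10). TNFRSF21 fell by 0.23 (adjusted p = 4.04e-11) and TNFRSF1A, the main receptor of tumour necrosis factor, by 0.26 (adjusted p = 5.53e-09).

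**Figure D5:**
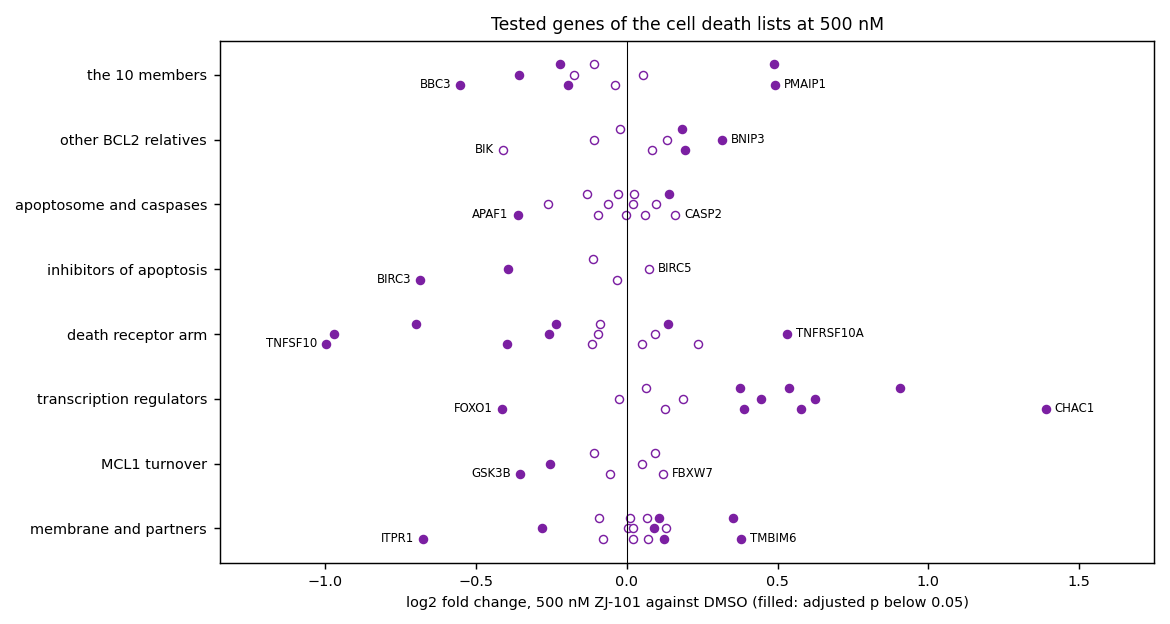
log2 fold change at 500 nM ZJ-101 against DMSO (x axis) of the 10 members and of the tested genes of 7 further lists, with filled points for an adjusted p below 0.05 and the lowest and highest gene of each list named. The row of transcription regulators, which also holds stress markers such as CHAC1, lies mostly above 0 (8 of 13 rose). The members and most other lists lie on both sides.

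Listed transcription factors and stress markers rose more often than they fell. Of the 13 genes, 4 rose at 5 nM and 6 at 50 nM, with 0 that fell, where 3.63% and 10.9% of all genes rose. At the highest dose 8 rose and 1 fell, against 16.2% each way, with a median of 0.39. The gene that fell was FOXO1 (-0.42, limma, adjusted p = 0.0243), which did not pass at 5 nM (adjusted p = 0.407) or 50 nM (adjusted p = 0.421). FOXO3, the other FOXO gene listed, did not pass at 500 nM (0.06, adjusted p = 0.527). It fell from 0.5 to 5 nM (-0.29, adjusted p = 0.00274). Whether either gene bears on BCL2L11 was not tested. E2F1, the cell cycle factor, rose by 0.62 (adjusted p = 5.4e-18) and JUN, the target of stress kinases, by 0.58 (adjusted p = 1.06e-22). ATF4, the factor of the integrated stress response, rose by 0.45 (adjusted p = 6.78e-18), and its target CHAC1 by 1.39 (adjusted p = 3.55e-11).

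Among 7 genes that control how long the MCL1 protein lasts, 0 rose and 2 fell at 500 nM (median -0.06), where 32.4% of all genes were called, 16.2% each way. USP9X, which removes ubiquitin from MCL1, fell by 0.25 (adjusted p = 1.02e-10), and GSK3B, a kinase that marks MCL1 for breakdown, fell by 0.35 (adjusted p = 5.47e-05). Of 16 mitochondrial membrane and partner genes, 5 rose and 2 fell (median 0.04) against the same shares. TMBIM6, known as BAX inhibitor-1, rose by 0.38 (adjusted p = 2.8e-26), ITPR3, a calcium release channel, by 0.35 (adjusted p = 7.15e-22) and YWHAZ, a 14-3-3 protein gene, by 0.11 (adjusted p = 0.000119), whereas the channel gene ITPR1 fell by 0.68 (adjusted p = 4.66e-09).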

How the data were processed

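Poly(A) RNA of 15 spheroid libraries was sequenced, and according to the study's methods HISAT2 aligned the paired-end reads to hg38, htseq-count counted them by gene and DESeq2 gave the study's tests, on a Galaxy server. Versions, GENCODE release and strand setting are not given in the sources used here. The deposited table holds signal values that the authors made by scaling each library's gene counts by its size factor from DESeq2. In each library 100.0% of values were whole multiples of 1 step (tolerance 0.001), so reads were recovered for count methods. The authors' comparison tables (mean signal, log2 fold change, standard error, test score and p-values of each dose against DMSO) were not used.

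The main test was limma 3.58.1 in R 4.3.3, with an intensity trend and robust moderation, on log2(normalised count + 1). It fitted the 5 groups in 1 model over 15233 genes (mean of 10 or more), with p-values two-sided and adjusted over all of them. Fold changes are on that log2 scale and understate changes of low genes. The script was tested on simulated data. The alternatives left out the filter, raised it to a mean of 50, or used TMM, a pseudocount of 5, groups compared alone, edgeR 4.0.16 and DESeq2 1.42.0 on recovered reads, a replicate block or no trend and no robust moderation, and 3 fibroblast-rich libraries together or each library in turn were left out. Depth was 7773325 to 10065633 reads per library, and the biological coefficient of variation was 3.72%.

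Exon lengths, overlaps and positions came from GENCODE release 44. Promoter sequences came from RefSeq. The members and gene lists were chosen with earlier results of these data known. All members are named, and of each further list up to 4 genes with the smallest p at 500 nM, and for 3 members the 3 genes of highest correlation. XIAP, FOXO1, FOXO3, fibroblast genes beyond those 4 and the untested relatives were named after their values were seen. A few results that the rule would name are not reported here. Figures were drawn in Python 3.11.15 with matplotlib 3.10.9.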

Additional observations from a re-analysis of the deposited data

How the results depend on the processing

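The counts of members called moved by no more than 1.5 times under all alternatives other than the following. Without trend and robust moderation 1 member in place of 3 was called at 5 nM. From 0.5 to 5 nM that setting called 1 in place of 5, BCL2L11 in both cases. Calls over all 15233 genes also fell, to 384 from 1053 and to 363 from 1076. At 500 nM that setting called 6 members as before, with BCL2L11 called and BAD not. The members' count from 0.5 to 5 nM was 3 without the 3 fibroblast-rich libraries, and ran from 3 to 5 with 1 library left out. Leaving out 1 library gave 0 members called at 0.5 nM, 2 to 3 at 5 nM, 5 to 6 at 50 nM and 5 to 8 at 500 nM. Over all genes these fits called 5 to 14, 745 to 1041, 2553 to 3167 and 4405 to 4989. The cause was not tested.

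Directions turned only for values that were not called. Without the 3 fibroblast-rich libraries the log2 fold change at 0.5 nM was -0.0484 for BCL2 and -0.0221 for BCL2L1, and at 5 nM 0.022 for BAD. PMAIP1 at 5 nM was -0.0006 with TMM, -0.0022 with edgeR and -0.0025 with DESeq2. Leaving out 1 library at a time, log2 fold changes against DMSO ran at 0.5 nM from -0.0484 to 0.356 for BCL2, from -0.0221 to 0.0381 for BCL2L1, from -0.0076 to 0.0356 for MCL1, from -0.0093 to 0.0578 for BID. At 5 nM they ran from -0.0312 to 0.2636 for BCL2, from -0.0384 to 0.0522 for PMAIP1, from -0.0019 to 0.0652 for BID, from -0.0923 to 0.0711 for BAD. At 50 nM they ran from -0.0157 to 0.07 for BAX, and at 500 nM from -0.18 to 0.1135 for BCL2.

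Replicate numbers did not pair the samples: deviations of libraries with the same number had a median correlation of 0.00 (30 pairs, -0.12 to 0.18). With a replicate block 0, 3, 5 and 6 members were called in order of dose, 5, 2 and 2 in the steps, 9 by the F-test and 6 by the slope. Over all genes the block gave 14, 1064, 3148 and 4958 calls by dose, and 1098, 2838 and 1940 in the steps. It gave 5943 by the F-test and 4027 by the slope.

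Depth limits BCL2 most, with 27 to 56 reads per library. Exonic sequence shared with antisense genes limits BCL2L1 and BAD, and 3 libraries per group limit all comparisons. RNA levels at 24 h were measured, and proteins, their modification and cell death were not analysed here.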
